A study of Danio rerio with 50 samples.

Results

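Immature olfactory sensory neurons (OSNs) were compared with mature OSNs that express an odorant receptor (OR). The comparison used 34 of the 50 libraries of the series, 5 immature cells and 29 mature cells with an OR. Each library is 1 cell of a Tu/TLF zebrafish embryo (Danio rerio) on the second day after fertilization, and the labels name no treatment. Immature and mature cells alike were sorted for red fluorescence from the OMP:RFP transgene, in which the promoter of zebrafish omp drives RFP, so that the immature cells are those that already held the fluorescent protein. The embryos came from crosses of heterozygotes and were pooled, and the labels tie no cell to an animal. Single cells were captured on a Fluidigm C1 chip and amplified with the SMARTer kit. The immature cells were s20535, s23543, s23545, s23569 and s23573, as classified in the study, and the mature cells were the 29 to which the study assigned an OR. Below, mature cells are these 29, unless the 13 mature cells without an OR are named. The deposited values are raw read counts per gene, scaled here to the total of the cell and given as CPM (counts for each 1e+06 counted). A gene is called seen in a cell that holds at least 100 counts of it. Fluidigm spike-in RNAs had been added to s20535 and 11 mature cells, and ERCC spike-in RNAs to the other 4 immature and 18 mature cells.

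OSNs arise throughout life from basal progenitors of the olfactory epithelium. A newborn OSN expresses genes of neurite growth such as gap43, which encodes a growth cone protein, and the G protein gamma subunit gng8, while it extends an axon to the olfactory bulb. As it matures it takes up gng13 in place of gng8 and grows cilia, in which the olfactory G protein, an adenylyl cyclase, a cyclic nucleotide-gated channel and a calcium-activated chloride channel turn the binding of an odour to the OR into a current.

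The study set the immature cells apart by clustering on 9 marker genes, so that the levels of these genes describe the groups and carry no test. The immature marker gng8 was at 0, 1175, 0, 1514 and 0.0506 CPM in s20535, s23543, s23545, s23569 and s23573, against at most 0.159 CPM in the mature cells. The other, gap43, was at 396, 0, 1164, 0 and 220 CPM in the same order of cells, which is kept below, against at most 9.62 CPM in the mature cells. Each immature cell thus had a high level of 1 of these genes and none had a high level of both. Of the mature markers, gng13b was at 3.56, 1.62, 2.17, 3.48 and 403 CPM, against 0.243 to 6794 CPM (median 1504 CPM) in the mature cells. Only s23573 among the immature cells saw it. gnal, the alpha subunit of the olfactory G protein, was at 1.21, 207, 0.495, 1.01 and 203 CPM, against 0.709 to 5766 CPM (median 1103 CPM). ompb, an olfactory marker protein gene, was at 6.96, 0.556, 0.266, 0.443 and 23 CPM, against 0.507 to 2624 CPM (median 582 CPM). The channel subunit CNGA2_(1_of_2) did not exceed 1.15 CPM and the cyclase adcy3b did not exceed 2.98 CPM in any immature cell. Their highest levels in the mature cells were 9042 and 4582 CPM. The channel subunit cnga4 was at 135 CPM in s23545 and 41.1 CPM in s23573, and the chloride channel ano2 was at 55.8 CPM in s23573, while the remaining immature cells had at most 1.97 CPM of either.

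**Figure D1:**
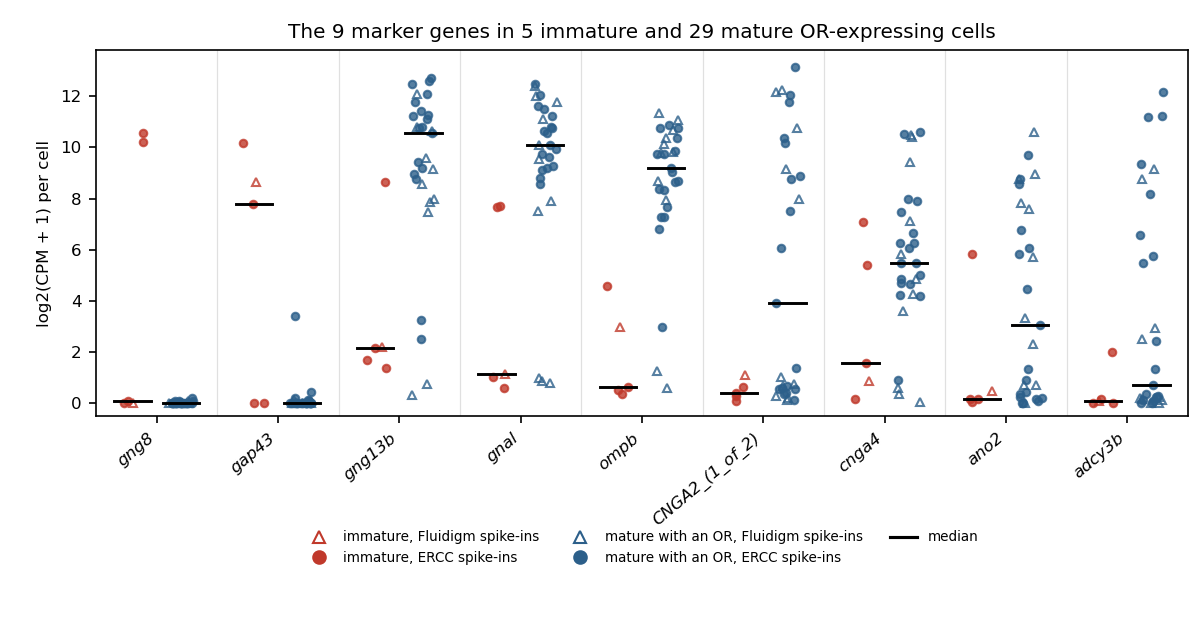
Levels of the 9 markers that made the groups, as log2(CPM + 1) on the vertical axis, with 1 point per cell, red for the 5 immature cells (left of each pair) and blue for the 29 mature cells (right), open triangles for Fluidigm and filled circles for ERCC spike-ins, and the black bar at the group median. gng8 was high in 2 immature cells and gap43 in the other 3, and gng13b, gnal and ompb were seen in 25, 26 and 26 of the 29 mature cells.

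The labels were checked against these markers. Summed over the 7 mature markers, the immature cells had 5.5 to 726 CPM and the mature cells 2.84 to 12471 CPM (median 7280 CPM). The groups overlapped, because 2 mature cells with Fluidigm spike-ins lay below the highest immature cell, s18930 with 2.84 CPM and s20565 with 54.4 CPM. These cells go against their label, and counts of genes are given with and without them. Total counts were 15810675 to 26266661 in the immature cells and 6951519 to 30192554 in the mature cells. The number of genes seen was 1570, 1928, 2550, 2090 and 3087 in the immature cells, against 734 to 2528 (median 1692) in the mature cells. With every cell thinned to the lowest total, 6951519 counts, it was 1394 to 2680 (median 1876) in the immature cells, against 713 to 2206 (median 1548). The ranges overlapped before and after thinning. The size factor of s20535, computed by the method of DESeq2, was 0.223, against 1.57 to 3.49 in the other immature cells and 0.0854 to 4.69 in the mature cells. Of the proneural factors of progenitors, ascl1a and neurog1 had 0 counts in all 5 immature cells. Among the immature cells neurod1 was seen in s20535 alone, at 218 CPM, and it was also seen in 1 mature cell, at 414 CPM. Other markers of progenitors and early neurons were seen in both groups. insm1a, sox11a, elavl3 and stmn1b were seen in 3, 4, 5 and 5 immature cells and in 20, 17, 24 and 26 mature cells. ebf2 and sox11b were each seen in 2 immature cells, and in 2 and 1 mature cells.

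Over the whole table, 6492 genes were seen in at least 3 of the 34 cells and are described. The mean log2(CPM + 1) was higher in the immature cells for 3512 genes (54.1%) and lower for 2980 (45.9%), and the median difference was 0.19. This direction turned without s23573, when 47.2% of genes were higher and the median difference was -0.17, and in the Fluidigm cells alone 20.3% were higher and it was -0.82. Seen in at least 80% of immature and at most 20% of mature cells were 34 genes (0.524%), and the opposite held for 1 gene (0.0154%), the marker gng13b. Without s18930 and s20565 these numbers were 41 and 4. A wider rule, a gap of at least 40 percentage points between the shares of cells, was chosen after the data had been seen. It took 362 genes seen more often in immature cells (5.58%) and 76 seen less often (1.17%), or 389 and 102 without s18930 and s20565. The CPM ranges of the groups were separate for 1 gene higher in immature cells (0.0154%), med7, and for 0 genes lower in them (0%). Cells are not replicates, and none of these numbers has a test.

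For a test, counts were summed by group and spike-in set into 6 sums that include the 13 mature cells without an OR, and the immature Fluidigm sum was s20535 alone. edgeR's quasi-likelihood F-test, adjusted by the method of Benjamini and Hochberg, set the immature cells against the OR-expressing mature cells and called 0 of 7886 genes (0%), with 173 genes at an unadjusted p under 0.05 and a lowest adjusted p of 0.618. On the same sums DESeq2 called 1251 genes, 695 higher and 556 lower in immature cells, with 2284 at an unadjusted p under 0.05. limma-voom called 0 genes, with 813 at an unadjusted p under 0.05. The labels name no separate cultures or animals, so that these p-values measure only the spread between the sums. Differences between the groups are therefore given below as values, with the edgeR estimate for a few genes.

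Of the 34 genes, 5 were seen in all 5 immature cells. cux1a, a homeobox transcription factor, was at 831, 168, 217, 1995 and 193 CPM, against 0 to 910 CPM (median 0.0469 CPM) in the mature cells, of which 3 saw it. All immature cells were above the mature median and 1 was above every mature cell. edgeR put its log2 fold change over the sums at 4.45, with a standard error of 3.56 and an adjusted p of 0.649. mta1, a subunit of the NuRD chromatin remodelling complex, was at 47.1, 93.5, 255, 25 and 236 CPM, against 0 to 822 CPM (median 0.0534 CPM). It was seen in 4 mature cells, 2 of them above all immature cells. fbxl3a, an F-box protein that in mammals marks cryptochromes for degradation, was at 9.66, 14.4, 7.61, 367 and 19.4 CPM, against 0 to 1283 CPM (median 0.0529 CPM). AKAP13_(1_of_2), an anchoring protein for protein kinase A, was at 6.67, 17.9, 45.8, 822 and 35.2 CPM, against 0 to 583 CPM (median 0.22 CPM). The edgeR log2 fold change over the sums was 1.92 for this entry and -2.98 for a second entry, AKAP13_(2_of_2), with standard errors of 4.2 and 4.42. In fbxl3a 1 mature cell was above all immature cells, whereas in AKAP13_(1_of_2) the highest of the 34 cells was the immature cell s23569. Among the mature cells without an OR AKAP13_(1_of_2) reached 826 CPM. zgc:153426, which the files do not describe further, was at 3797, 19.9, 3.96, 12.6 and 1111 CPM, against 0.156 to 2712 CPM (median 1.03 CPM).

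med7, a subunit of the Mediator complex that links transcription factors to RNA polymerase II, was the gene whose ranges were separate. Its levels were 1592, 56.2, 0.799, 17.6 and 98.9 CPM in the immature cells and at most 0.141 CPM in the mature cells. The lowest immature cell, s23545, had fewer than 100 counts, so that 4 immature cells saw the gene. edgeR put its log2 fold change over the sums at 15.69, with a standard error of 5.14 and an adjusted p of 0.618. adgrb3, an adhesion G protein-coupled receptor of neurons, was at 9.77, 32.9, 23.1, 84.5 and 0.0506 CPM, against at most 0.144 CPM in the mature cells. dscamb, a recognition molecule of growing neurites, was at 85, 454, 172, 0.253 and 157 CPM, against at most 5.29 CPM. bahcc1, a chromatin-associated protein, was at 69.6, 0.708, 79.6, 69.4 and 275 CPM, against at most 26.8 CPM. In each of adgrb3, dscamb and bahcc1, 4 immature cells exceeded every mature cell with an OR and the remaining one, a different cell each time, lay in the mature range. The highest levels in the mature cells without an OR were 0.315, 179 and 13.1 CPM in that order.

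The other genes named by this rule had a range of functions. kat5b, the Tip60 histone acetyltransferase, was at 4823, 879, 0.0381, 1718 and 107 CPM, against 0 to 286 CPM (median 0.0767 CPM) in the mature cells. rsf1b.1, a chromatin remodelling factor, was at 68.5, 631, 0, 135 and 18.9 CPM, against 0 to 94.9 CPM (median 0.0387 CPM). In kat5b 3 immature cells and in rsf1b.1 2 immature cells were above every mature cell, while s23545 was at or near 0 in both. rbfox2, a splicing regulator, was at 0.172, 435, 20.2, 244 and 45 CPM, against 0 to 571 CPM (median 0.0449 CPM). hacd2, an enzyme of long-chain fatty acid synthesis, was at 330, 0, 1038, 54.3 and 1146 CPM, against 0 to 104 CPM (median 0.0534 CPM). cry2b, a cryptochrome, was at 107, 11.4, 0, 441 and 21.6 CPM, against 0 to 150 CPM (median 0 CPM). Among the 34 cells the highest rbfox2 level was in a mature cell, and those of hacd2 and cry2b were in immature cells. In the 13 mature cells without an OR hacd2, cry2b and rsf1b.1 reached 1656, 686 and 516 CPM. They were seen in 4, 2 and 5 of those cells, whereas kat5b reached 1.04 CPM there. RIMBP2_(2_of_2), a presynaptic active zone protein, was at 4.83, 32.1, 50.1, 885 and 604 CPM, against 0 to 6501 CPM (median 0.0469 CPM). Each immature cell saw 11 to 14 of the 15 genes named from this rule, which chose them for that, and each mature cell saw 0 to 3.

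**Figure D2:**
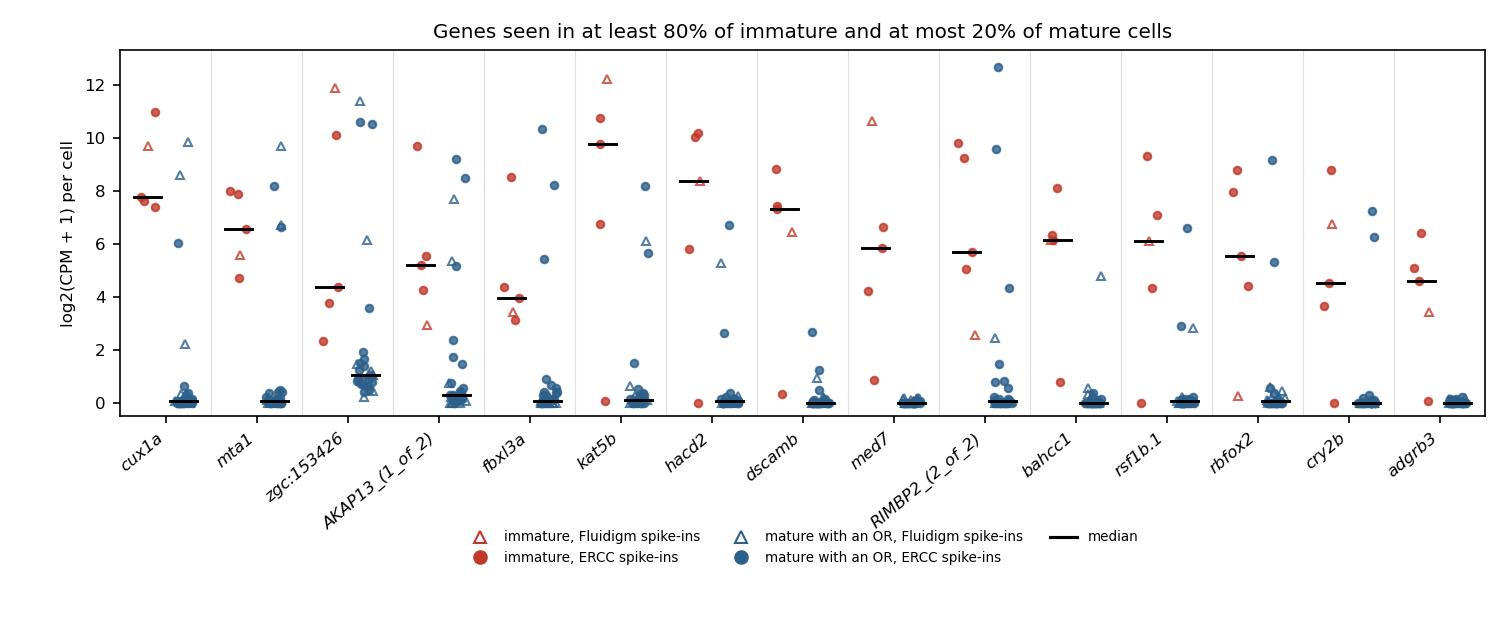
The 15 genes named from those seen in at least 80% of immature and at most 20% of mature cells, as log2(CPM + 1) on the vertical axis, with 1 point per cell, red for immature (left) and blue for mature (right), open triangles for Fluidigm and filled circles for ERCC spike-ins, and bars at the medians. The mature median was at most 1.03 CPM for each gene, and 0 to 5 mature cells saw each.

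Transcription factors of neuronal differentiation were higher in the immature cells for most members. Of 48 neurogenic and early neuronal regulators in the counts, 18 could be described, 13 of them higher (72.2%, beside 54.1% of all genes) and 5 lower. Their median difference was 2.14 on the log2 scale beside 0.19 over all genes. Shares of cells were at least 40 percentage points higher for 2 and that much lower for 0, beside 5.58% and 1.17% of all genes. Their summed level was 5741 to 12340 CPM in the immature cells and 730 to 10369 CPM (median 3937 CPM) in the mature cells. nhlh2, a basic helix-loop-helix factor of newborn neurons, was at 0, 889, 904, 523 and 4048 CPM, against 0 to 76.5 CPM (median 0.0529 CPM). All 4 immature cells with ERCC spike-ins exceeded every mature cell, and s20535 had no count. edgeR put its log2 fold change over the sums at 9.02, with a standard error of 4.71 and an adjusted p of 0.618. myt1a, a zinc finger factor that promotes neuronal fate, was at 3022, 1089, 102, 800 and 85.7 CPM, against 0.0523 to 3171 CPM (median 1.09 CPM). All 5 immature cells saw it and 13 mature cells did. ebf3a, of the Olf/EBF factors first found in olfactory neurons, was at 2224, 443, 4597, 1627 and 1685 CPM, against 0.0811 to 4009 CPM (median 141 CPM). Its relative ebf2 was at 12.8, 0, 1.6, 0 and 2512 CPM, against at most 201 CPM. Another relative, ebf1a, was at 1510, 0.303, 6.28, 0.0632 and 44 CPM, against 0.0405 to 2055 CPM (median 103 CPM), so that s20535 was high and the other 4 immature cells lay below the mature median.

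Genes of the growing neurite were also higher for most members. Of 40 described, 33 were higher (82.5%, beside 54.1% of all genes) and 7 lower in immature cells, with a median difference of 1.69. Shares of cells were at least 40 percentage points higher for 5 and that much lower for 0, beside 5.58% and 1.17% of all genes. stmn1b, a stathmin that destabilizes microtubules, was at 3923, 3164, 5339, 5645 and 5982 CPM, against 0.77 to 6597 CPM (median 1966 CPM). marcksb, a protein kinase C substrate of the growth cone membrane, was at 1125, 1412, 1007, 0 and 224 CPM, against 0 to 978 CPM (median 0.157 CPM). All 5 immature cells were above the mature median of stmn1b, and s20535, s23543 and s23545 were above every mature cell with an OR in marcksb. Among the mature cells without an OR marcksb reached 1302 CPM. elavl4, a neuronal RNA-binding protein that in mammals stabilizes gap43 mRNA, was at 1539, 1.26, 3543, 1.58 and 2133 CPM, against 0 to 871 CPM (median 1.72 CPM). The cells high in elavl4 were the 3 that held gap43, and all 3 exceeded every mature cell with an OR. In the mature cells without an OR elavl4 reached 2194 CPM. dpysl3, a collapsin response mediator, was at 0.0575, 254, 1127, 38.5 and 2515 CPM, against 0 to 884 CPM (median 0.277 CPM). stmn2a, another stathmin, was at 0.172, 138, 59.3, 811 and 558 CPM, against 0 to 1005 CPM (median 0.0775 CPM). Both were seen in the 4 ERCC cells and not in s20535. Among 12 tubulin genes described 10 were higher, with a median difference of 2.26, and tubb4b was at 12750, 259, 6947, 2241 and 3514 CPM, against 0.601 to 5133 CPM (median 762 CPM). A gap of 40 percentage points was found for 0 tubulins in either direction, beside 5.58% and 1.17% of all genes. Their median difference was 2.35 in the ERCC cells, 0.55 in the Fluidigm cells and 1.06 against the mature cells without an OR. Over all genes these medians were 0.22, -0.82 and 0.21.

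The adhesion and guidance list was even in direction, with 10 higher and 9 lower of 19 and a median difference of 0.00. Shares of cells were at least 40 percentage points higher for 3 and that much lower for 0, beside 5.58% and 1.17% of all genes. kirrel3l, an immunoglobulin adhesion molecule whose mouse relatives take part in sorting OSN axons, was at 66.3, 0, 20.7, 0 and 26.8 CPM, against at most 0.494 CPM in the mature cells. It was thus found in the same 3 cells as gap43. celsr3, an atypical cadherin of axon tracts, was at 0.23, 19.1, 421, 0 and 539 CPM, against at most 34.5 CPM. plxna3, a semaphorin receptor, was at 0.115, 0.101, 32.4, 197 and 18.4 CPM, against at most 195 CPM. epha3, an ephrin receptor, went the other way, with at most 0.303 CPM in the immature cells against 0 to 1494 CPM (median 0.462 CPM) in the mature cells, of which 10 saw it.

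Genes of protein synthesis had the most uniform direction of the 12 lists plotted. Of 80 cytosolic ribosomal protein genes described, 79 were higher in the immature cells and rps6 was lower, with a median difference of 2.19. The share of cells was at least 40 percentage points higher for 18 of them and that much lower for 0, beside 5.58% and 1.17% of all genes. rpl3, of the large subunit, was at 2997, 1430, 1146, 71.8 and 2513 CPM, against 0.0536 to 4419 CPM (median 0.938 CPM), and was seen in all 5 immature and 9 mature cells. edgeR put its log2 fold change over the sums at 3.18, with a standard error of 2.15 and an adjusted p of 0.618. rpl4 was at 1616, 19, 597, 1251 and 1010 CPM, against 0 to 3004 CPM (median 2.18 CPM). In each of rpl3 and rpl4 1 mature cell lay above all immature cells. The summed ribosomal level was 84067, 15616, 27832, 10366 and 28169 CPM in the immature cells, against 1522 to 208551 CPM (median 11185 CPM) in the mature cells. The highest mature value belonged to s18930, a cell that goes against its label. s20535 lay above the other 28 mature cells, of which the highest was s20599 with 34696 CPM. The remaining immature cells lay within the range of those mature cells. Ribosomal protein genes have near-identical copies among which reads may have been divided, so that single members are uncertain.

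Of 40 proteasome genes described 29 were higher (72.5%, beside 54.1% of all genes), with a median difference of 0.83. Shares of cells were at least 40 percentage points higher for 5 and that much lower for 0, beside 5.58% and 1.17% of all genes. psma5, of the core particle, was at 204, 73.2, 533, 1.9 and 17.2 CPM, against 0 to 295 CPM (median 0.0615 CPM). Of 82 nuclear genes of the respiratory chain 54 were higher (65.9%), with a median difference of 0.53. Shares of cells were at least 40 percentage points higher for 9 and that much lower for 1, beside 5.58% and 1.17% of all genes. Against the mature cells without an OR their median difference was -0.06, beside 1.19 for the proteasome genes and 0.21 over all genes. ndufs7, of complex I, was at 36.6, 920, 251, 406 and 99.4 CPM, against 0 to 1051 CPM (median 1.78 CPM). ndufv3, also of complex I, was among the 28 members that were lower. It had at most 0.23 CPM in the immature cells against 0.0534 to 1782 CPM (median 10.1 CPM). The median differences of the lists were then computed within each spike-in set. In the Fluidigm cells, where s20535 is the only immature cell, they were 3.13 for ribosomal, 3.19 for neurogenic, -0.01 for neurite, -0.37 for proteasome and -1.10 for respiratory chain genes, beside -0.82 over all genes. In the ERCC cells they were 2.45, 1.4, 1.79, 1.2 and 1.07 in that order of lists, beside 0.22 over all genes. Beside the median of all genes in the same set, the ribosomal, neurogenic, neurite and proteasome lists were higher in both sets, and the respiratory chain list was higher in the ERCC and lower in the Fluidigm cells.

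**Figure D3:**
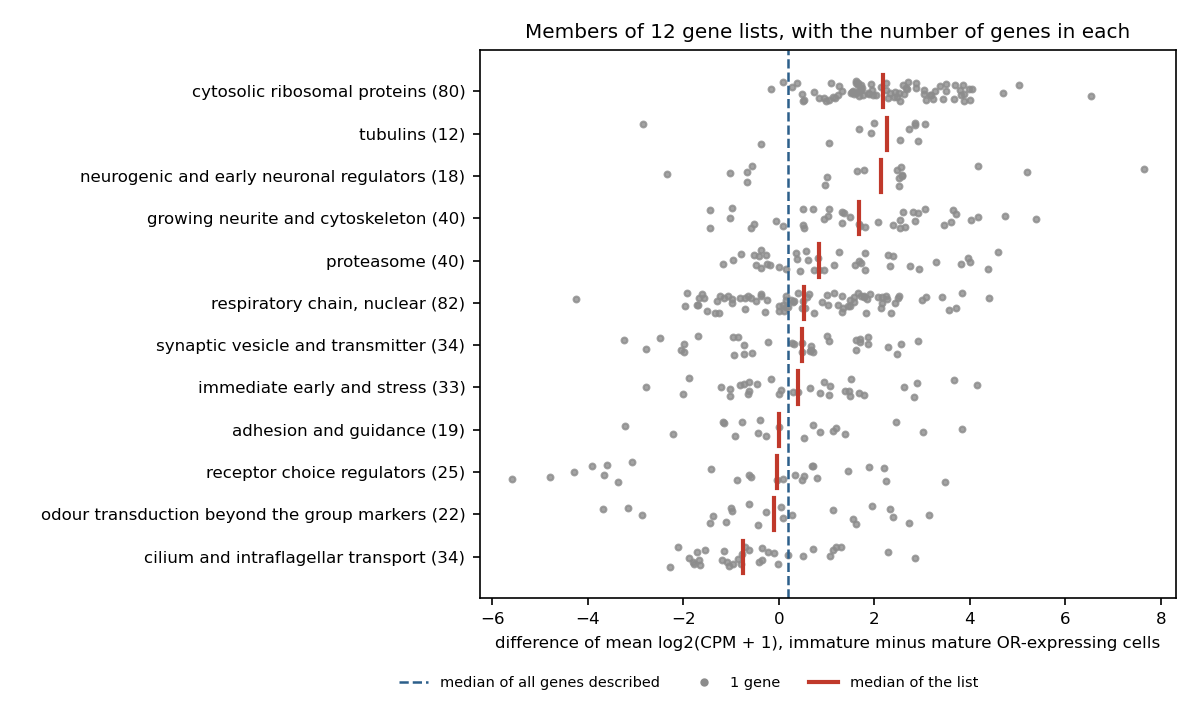
Differences of mean log2(CPM + 1), immature minus mature OR-expressing cells, on the horizontal axis for the members of 12 gene lists, with 1 grey point per gene, a red bar at the median of the list and a dashed line at 0.19, the median of all 6492 genes. Of 80 ribosomal protein genes 79 lie above 0, and of 34 cilium genes 25 lie below it.

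Genes of cilia differed between the count of members and their summed level. Of 34 genes of the cilium and intraflagellar transport described, 9 were higher (26.5%, beside 54.1% of all genes) and 25 lower in immature cells. The median difference was -0.74, and 0 members had a gap of 40 percentage points in either direction. Over all genes 5.58% had such a gap upward and 1.17% downward. The summed level was 14428, 1382, 8385, 3840 and 5492 CPM in the immature cells, against 1151 to 8320 CPM (median 5479 CPM) in the mature cells. s20535 and s23545 thus exceeded every mature cell, and in these cells tubb4b, given above and also a member, made up most of the sum. arl13b, a small GTPase of cilia, was at 0, 0, 487, 0.0632 and 593 CPM, against a median of 0.0495 CPM in the mature cells, of which 4 saw it and 1 was above all immature cells, with a difference of 2.29. On the other side, the transport gene ift20 was at most 0.455 CPM, ift57 at most 0.101 CPM and the BBSome gene bbs5 at most 0.115 CPM in the immature cells. They were seen in 9, 8 and 8 of the 29 mature cells. Of the 76 genes with a share of cells at least 40 percentage points lower in the immature cells, 40 were seen in none of the 5. Of these 14 are plotted below, and all but foxj1b and ndufv3, which their lists also name, were named after their values had been seen. Of all 6492 genes described, 4775 were seen in at least 1 immature cell and the rest in none, so that such absence was common. Those given next lie outside the cilium list, in which 0 members had such a gap. Except foxj1b, which is also a member of the list of receptor choice regulators given below, they were picked by their values. foxj1b, a forkhead regulator of ciliary genes, was at 0.23, 0.0506, 0.0761, 0.19 and 0.455 CPM, against 0.0529 to 2958 CPM (median 40.7 CPM) in the mature cells, of which 18 saw it. Its paralog foxj1a was at most 2.02 CPM, and rfx3, another transcription factor of ciliary genes, at most 2.28 CPM. These were seen in 14 and 13 mature cells. dnah7l, an axonemal dynein, was at most 0.287 CPM, CFAP70, a cilia and flagella associated protein, at most 0.316 CPM and WDR93 at most 0.101 CPM. They were seen in 13, 13 and 16 mature cells.

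Genes of other functions were also seen in no immature cell. sulf2b, an enzyme that edits heparan sulfate outside the cell, was at 0.69, 0.758, 0.305, 0.316 and 0.152 CPM, against 0.159 to 6271 CPM (median 166 CPM) in the mature cells, of which 21 saw it. edgeR put its log2 fold change over the sums at -9.62, with a standard error of 4.5 and an adjusted p of 0.618. ptn, the heparin-binding growth factor pleiotrophin, was at most 0.632 CPM, and 19 mature cells saw it. The phospholipase C plch2a was at most 0.632 CPM and the cyclic GMP phosphodiesterase pde5ab at most 0.455 CPM, with 17 and 18 mature cells. In all 4 genes the immature cells lay at or below the low end of the mature range.

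**Figure D4:**
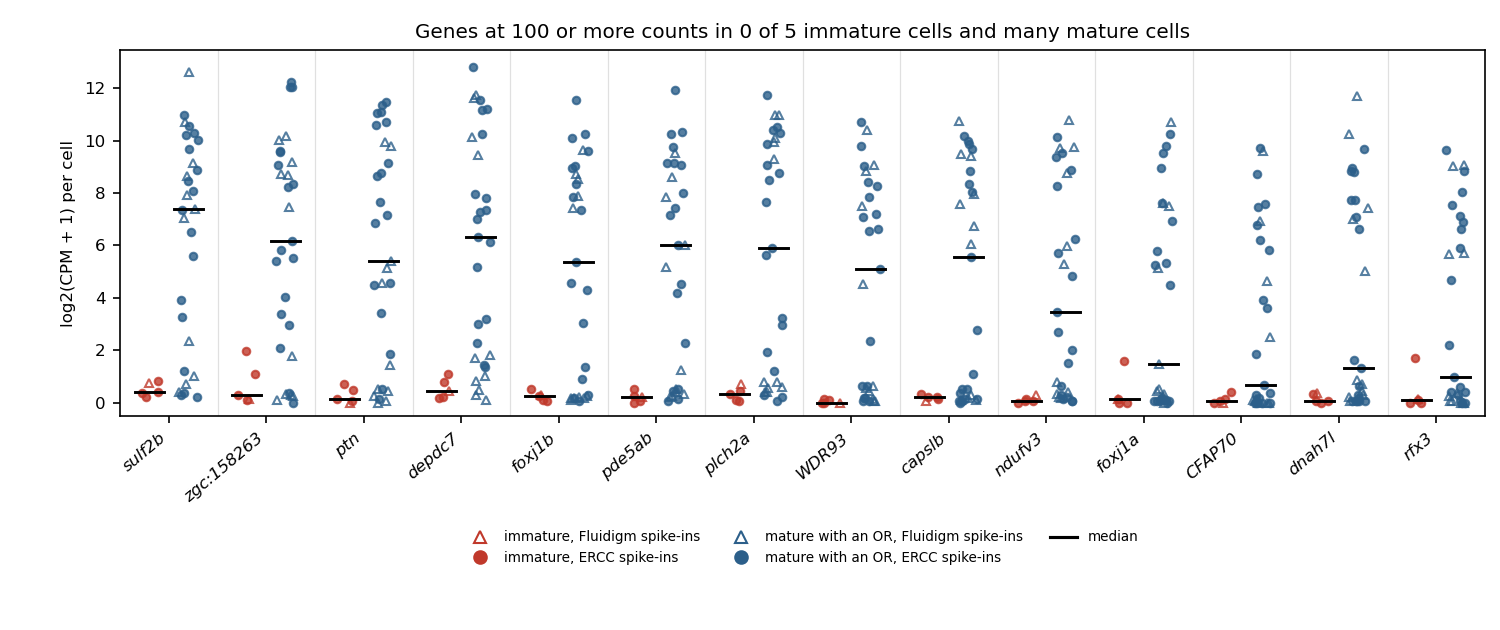
The 14 genes named from those at 100 or more counts in none of the 5 immature cells, as log2(CPM + 1) on the vertical axis, with 1 point per cell, red for immature (left) and blue for mature (right), open triangles for Fluidigm and filled circles for ERCC spike-ins, and bars at the medians. No immature cell exceeded 2.88 CPM (zgc:158263), while 13 to 21 of the 29 mature cells saw each gene.

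Regulators of receptor choice were split, with 12 higher and 13 lower of 25 and a median difference of -0.04. The share of cells was at least 40 percentage points lower in the immature cells for 6 of them and that much higher for 1, beside 1.17% and 5.58% of all genes. foxj1b, given above with the genes of cilia, is among these 6. uncx, a homeobox factor, was at 0.115, 0.556, 53.5, 0.253 and 0.101 CPM, against 0.0924 to 6952 CPM (median 182 CPM), and 23 mature cells saw it. uncx4.1 was at 429, 0, 0.381, 1.08 and 0.152 CPM, against 0.156 to 5148 CPM (median 117 CPM). In both genes a single immature cell had 100 or more counts, s23545 for uncx and s20535 for uncx4.1. cbx5, a heterochromatin protein of the HP1 family, was at 1.26, 0, 0, 0 and 0 CPM, against 0 to 2407 CPM (median 1.29 CPM). klf7b, a Krüppel-like factor whose mouse relative is required for OSN axons, was at 249, 424, 2633, 484 and 18.2 CPM, against 0 to 2722 CPM (median 28.8 CPM). OR genes together summed to no more than 8.68 CPM in any immature cell.

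Transduction genes outside the markers were even, with 11 higher and 11 lower of 22 and a median difference of -0.11. calm1a, a calmodulin, was at 0.172, 850, 6.43, 107 and 182 CPM, against 46.7 to 2884 CPM (median 564 CPM), and was seen in all 29 mature cells. PDE1C, a calmodulin-dependent phosphodiesterase, was at most 0.657 CPM and ompa at most 0.569 CPM in the immature cells, with 14 and 10 mature cells that saw them. gnb1b, a G protein beta subunit, was at 3437, 371, 3518, 1179 and 3165 CPM, against 1.12 to 3595 CPM (median 713 CPM). A separate list of G protein subunits was added after the data had been seen. Of its 19 members described 7 were higher (36.8%, beside 54.1% of all genes) and 12 lower in immature cells, with a median difference of -0.62. gng13b and gnal, markers that made the groups, are among the 12, so that the direction is in part set by the grouping. They were the 2 members with a share of cells at least 40 percentage points lower. A share that much higher was found for 1 member, beside 1.17% and 5.58% of all genes. Among those higher, the gamma subunit gng2 was at 0, 0, 588, 162 and 431 CPM, against at most 0.157 CPM. Thus 3 immature cells held gng2 and no mature cell with an OR saw it. Of the 13 mature cells without an OR 1 saw it, at 394 CPM. The neuronal alpha subunit gnao1b was at 0.46, 3041, 2922, 3466 and 1073 CPM, against 0 to 4702 CPM (median 37.8 CPM). hmgb2a, a chromatin protein that is high in dividing cells, was at 0.517, 152, 0.152, 1045 and 0.253 CPM, against 1.06 to 5119 CPM (median 1001 CPM), with s23569 alone of the immature cells at the mature median or above.

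The 5 immature cells differed from each other, and most genes named for this were chosen after their values had been seen. s23543 and s23569, the cells with gng8, had 31926 and 22282 CPM of calb2a, a calcium-binding protein of subsets of OSNs, against at most 3.05 CPM in the other 3. The mature cells had 0.365 to 23598 CPM (median 2.53 CPM). s100z, a calcium-binding protein used as a marker of crypt neurons, was at 0, 1420, 0.228, 3127 and 465 CPM, against 0 to 2585 CPM (median 0.267 CPM). The crypt neuron receptor ora4 was at most 0.0632 CPM in the immature cells. umodl1, which in mice is expressed in olfactory and vomeronasal neurons, was at 0, 327, 0, 370 and 0.101 CPM, against at most 13.2 CPM. sstr3, a somatostatin receptor of neuronal cilia, was at 0.115, 497, 0.0381, 2023 and 0.202 CPM, against at most 7.75 CPM. In umodl1 and sstr3 these 2 cells were above every other cell of both groups. trpc2b, the channel of microvillous OSNs, was at 172 CPM in s23569, against at most 47.7 CPM in the mature cells. pou4f1, a sensory neuron factor, was at 237 CPM in s23543 and at 0 in all mature cells.

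The remaining cells held other genes. gnrh3, the hormone of terminal nerve neurons, was at 0.0575, 239, 2680, 0 and 0 CPM, against at most 0.661 CPM in the mature cells, and was thus high in s23545 and present in s23543. The wider list of 5 genes of terminal nerve and hypothalamic peptide neurons summed to 0.0632 to 4274 CPM in the immature cells. In the mature cells this list summed to 0 to 7820 CPM (median 0.0523 CPM). In s23545 the LIM homeobox factors isl1 and isl2b were at 3144 and 2054 CPM, against at most 1.32 and 5.76 CPM in the mature cells. The same cell had 615 CPM of the neuronal intermediate filament prph and 1594 CPM of the neuropeptide gene npffl, against at most 0.847 and 18.4 CPM. Of the markers that made the groups s23545 held gap43 and cnga4. s23573 had the homeobox genes emx1, dlx6a and phox2a at 2048, 662 and 332 CPM, against at most 0.647, 0.144 and 2.01 CPM in the mature cells. The T-box factor tbr1b was at 1711 CPM in the same cell, against at most 1133 CPM. Of 6 markers of other central neurons isl1, phox2a and pou4f1 were each seen in 1 immature cell. The others, gad1b, gad2 and slc32a1, did not exceed 0.115 CPM in the immature cells, and gad1b reached 581 CPM in a mature cell. The wider list of 20 such genes summed to 0.402 to 5813 CPM in the immature and 0 to 1133 CPM in the mature cells. s23573 also had gnaia, a marker of microvillous OSNs, at 982 CPM, against at most 77.4 CPM, and the highest nhlh2, ebf2 and gng13b of the 5. In the mature cells without an OR gnaia reached 1240 CPM. The microvillous markers gnaia and trpc2b were not high in the same cell. trpc2b was at 0 CPM in s23573, and gnaia was at 0.19 CPM in s23569, the cell with trpc2b. The olfc receptor genes summed to at most 1.42 CPM in any immature cell. The wider list of 12 microvillous genes summed to 6.09, 36118, 5563, 26540 and 2641 CPM in the immature cells. calb2a, a member that is not particular to these neurons, made up most of the 2 highest sums. It was at 31926 CPM in s23543 and 22282 CPM in s23569. In the mature cells the list summed to 3.24 to 24383 CPM (median 2481 CPM). Of the 7 members of this list described, 5 were higher and 2 lower in immature cells (71.4% higher, beside 54.1% of all genes). Their median difference was 1.41, with 1.91 in the ERCC cells and -2.05 in the Fluidigm cells. s20535 alone had rel, an NF-kappaB factor, at 6068 CPM, the Wnt receptor fzd8b at 6257 CPM and tox3 at 2447 CPM, against at most 0.613, 0.426 and 0.277 CPM in the mature cells.

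**Figure D5:**
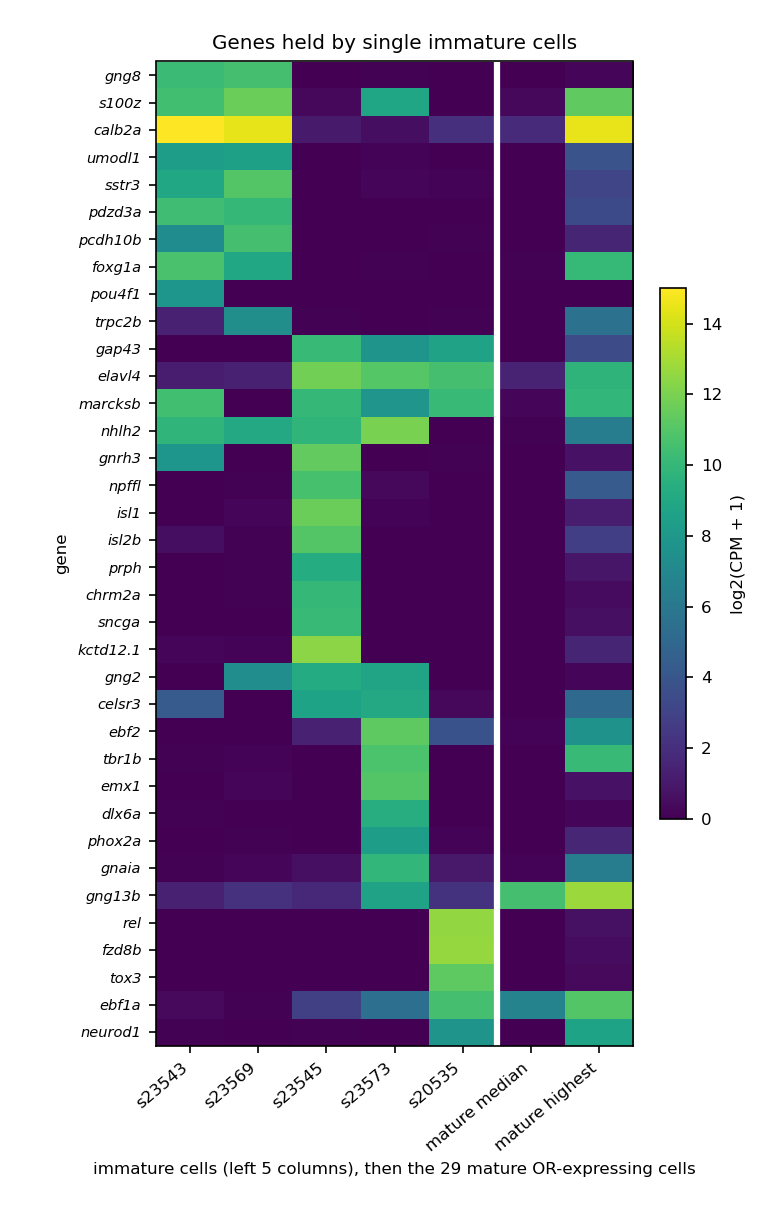
Levels of 36 genes (vertical axis) in each immature cell and, right of the white line, their median and highest level in the 29 mature OR-expressing cells, with colour for log2(CPM + 1). gng8 and umodl1 were high in s23543 and s23569, isl1 in s23545, emx1 in s23573, rel in s20535, and gap43 in s23545, s23573 and s20535.

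Markers of cells other than neurons were read in the same way, first a few defining markers and then the wider list of each cell type. The highest level of any of 5 defining glia and neural crest markers was 0.202 CPM in the immature cells and 14.6 CPM in the mature cells, and 3 of the 5, sox10 among them, had 0 counts in all immature cells. The wider list of 19 glia and neural crest genes summed to 261, 3030, 0.685, 390 and 358 CPM in the immature cells, against 218 to 10113 CPM (median 3270 CPM) in the mature cells. Its members seen in immature cells were the glutamine synthetases glula, at 5.92, 2998, 0.343, 278 and 270 CPM, and glulb, at 255, 32.5, 0.228, 2.85 and 30.6 CPM, and the myelin gene mbpb, at 0.0575, 0.0506, 0.114, 107 and 57.2 CPM. The mature medians of these genes were 1939, 365 and 0.108 CPM. For 7 lens, eye and muscle markers it was 0.0575 CPM in the immature and 119 CPM in the mature cells, with 5 at 0, and the wider list of 30 genes summed to 0.0632 to 26.8 CPM in the immature and 0 to 454 CPM in the mature cells. Of 7 blood markers, 2 were seen in an immature cell, hbae1 at 19.2 CPM in s20535 and ptprc at 72.8 CPM in s23569, and the highest in the mature cells was 647 CPM. The wider blood list of 17 genes summed to 0.0381 to 72.8 CPM in the immature and 0 to 850 CPM in the mature cells. Among 7 epithelial markers only epcam was seen, at 9124, 3026, 1680, 434 and 2920 CPM against 0.694 to 10418 CPM (median 2053 CPM), while krt5, krt18 and tp63 were at 0 in the immature cells, and the wider list of 24 genes summed to 3188 to 9466 CPM in the immature and 270 to 13199 CPM in the mature cells. The part that markers of these cells and of terminal nerve, microvillous, crypt and other neurons in single immature cells have in the differences between the groups was not tested.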

How the data were processed

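Transcriptomes of single OMP:RFP-positive OSNs were used. Per the study's methods, the authors mapped reads with STAR (GRCz10) and used VERSE to count them, and they deposited raw counts for 29033 genes. The submitters' processing notes also name CASAVA 1.8.2 and HTSeq. Columns of samples left unused numbered 0, and 3 bulk libraries were not used here. Reads carry no molecular identifiers.

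The labels give the cells and the study's methods and assignments give the groups. Members, lists and rules were chosen with earlier results of these data known. Genes that reached 100 counts in 3 or more of the 34 cells were described. Differences are of mean log2(CPM + 1). Counts were summed by group and spike-in set and fitted with edgeR 4.0.16 in R 4.3.3 (TMM, genes reaching 100 counts in 3 or more of all 47 cells). The fit was also run on simulated sums, all with a lower dispersion than the 3.89 estimated from the 6 sums. The simulation therefore cannot tell what the fit could recover in these data. The study describes independent chip runs without saying which spike-ins went with which, and each spike-in set was taken as a run. Deviations of same-set sums from their group means correlated at 0.12 to 0.25, and the set was the block of the paired fit. DESeq2 1.42.0, limma 3.58.1, other filters, normalizations, thresholds, reference cells and left-out cells were alternatives. Descriptions used Python 3.11.15, numpy 2.4.6 and pandas 2.3.3.

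Named were the 9 group markers, up to 15 genes in each direction past the rule on shares with the same sign in both spike-in sets, the up to 4 members of each list with the largest difference, and defining markers of other cell types. A further 39 genes, and other list members whose values are printed, were named after their values had been seen.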

Additional observations from a re-analysis of the deposited data

Results flagged for a closer look

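Of 50 sets of the 5 immature cells' values examined, 6 had 1 cell far from the other 4. The sets include the 16 genes past the rule on shares. That rule favours genes with 1 odd cell among the 5, so the number flagged cannot be set against a rate expected by chance. Genes and sums were compared on the log2 scale. s23569 had 1011 CPM summed over the adhesion and guidance list, the lowest of the 5, and 0.253 CPM of dscamb, also the lowest. The same cell had the highest fbxl3a, at 367 CPM. s20535 had the highest sum over 30 lens, eye and muscle genes, at 26.8 CPM. s23543 had the lowest bahcc1, at 0.708 CPM. s23573 had the highest gng13b, at 403 CPM.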

How the results depend on the processing

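edgeR called 0 genes with RLE size factors, a minimum of 10 counts, no filter, the replicate block, only the 4 sums of both groups, or without s18930 and s20565. DESeq2 called 1251. Leaving out 1 cell or 1 sum gave 0 to 1 calls, the 1 call without the ERCC immature sum, where the lone immature sum is s20535 and is assumed to vary like the other groups. Genes seen in immature and seldom in mature cells numbered 20 (34 in all cells) with ERCC cells only and 10 to 13 without 1 immature cell, when 80% means all 4 cells. The opposite kind (1 gene) numbered 0 at 10 counts, 2 at 10 CPM, 3 after thinning, 3 in ERCC cells, 4 without s18930 and s20565, and 0 to 1 without 1 immature cell. Separate ranges were found for 5 genes higher and 2 lower in ERCC cells, and for 1 to 2 higher and 0 lower without 1 immature cell. Gaps of 40 points were found for 634 genes higher in ERCC cells, and for 398 to 703 higher and 71 to 110 lower without 1 immature cell. Of 141 named genes, 38 changed sign in the Fluidigm cells alone, 5 in the ERCC cells alone and 2 to 7 without 1 immature cell, and the median over all genes was -0.17 without s23573. Only 5 immature cells, of unknown animals, limit all values.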
